A study of Mus musculus with 35 samples.

Results

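Chromatin accessibility in haematopoietic stem cells (HSCs) of mice lacking the type I interferon receptor was compared with that of wild-type HSCs at postnatal day 7 (P7). The comparison rests on 5 of the 35 libraries of the study: 2 libraries of P7 HSCs with the genotype label Infnar_KO, which the series design writes as Ifnar-ko, and 3 libraries of P7 HSCs with the genotype label Wildtype. All mice had the B6 background. The assay was ATAC-seq, in which the Tn5 transposase cuts accessible DNA and inserts sequencing adapters there. The libraries of each group were combined by the authors into 1 peak list, so 2 of the 12 lists of the study are compared here. Set 2 holds these and the lists of P7 haematopoietic progenitor cells (HPCs) of both genotypes, and set 1 holds 8 lists of HSCs and HPCs from fetal to adult mice, none labelled as knockout. No value has a spread between replicates and no test across samples was possible. The labels used here do not give the targeted exon, the way in which the knockout was made, the surface markers of the sort, the sex of the mice, or whether libraries came from separate mice.

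Touching and overlapping peaks on chromosomes 1 to 19 and X were merged into regions. Regions of the 2 lists that overlap by 1 bp or more count as shared, and all others are wild-type-only or knockout-only. Absence from a list means that no peak passed the authors' threshold, not that the chromatin was closed. The strength of a region is the highest -log10 p of its peaks, given by the authors' peak caller. It grows with sequencing depth and ranks regions only within a list, so values of the 2 genotypes set side by side below are not a measure of change.

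The receptor for interferon alpha and beta is a pair of membrane proteins, IFNAR1 and IFNAR2, which carry the kinases TYK2 and JAK1. Binding of an interferon activates these kinases, which phosphorylate STAT proteins, and a complex of STATs with IRF9 binds the interferon-stimulated response element in the promoters of interferon-stimulated genes. STAT pairs without IRF9 bind another sequence, the GAS element, which is best known from the response to interferon gamma. Type I interferon is known to drive quiescent adult HSCs into the cell cycle, and a low tonic level of signalling keeps interferon-stimulated genes at a basal level in many cells.

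The core of the response element was searched in RefSeq promoters of build GRCm38.p6, from 250 bases before to 50 bases after a transcript start, as the letters GAAA, any 2 bases and GAAA again, on either strand. The promoters below are shown because their calls carry the interferon result: the first 5 were called in wild-type HSCs and not in knockout HSCs, the next was called in knockout HSCs and not in wild-type HSCs, and the last 5 were called in both. Capitals mark matches of the search letters on either strand, overlapping matches run together, and all bases lie before the transcript start of the window searched, written in the direction of transcription. For Oas1a that start is 120907525, and another transcript starts at 120907544, inside the stretch shown.
Isg15 (chr4:156200850-156200921, minus strand): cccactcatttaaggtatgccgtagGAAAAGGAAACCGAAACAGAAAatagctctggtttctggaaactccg
Oas1a (chr5:120907526-120907570, minus strand): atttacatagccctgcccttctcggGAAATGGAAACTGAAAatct
Igtp (chr11:58199497-58199555, plus strand): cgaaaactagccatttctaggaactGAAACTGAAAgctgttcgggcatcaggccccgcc
Irgm1 (chr11:48871421-48871475, minus strand): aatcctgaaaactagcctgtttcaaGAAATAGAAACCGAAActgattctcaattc
Gbp2 (chr3:142620579-142620638, plus strand): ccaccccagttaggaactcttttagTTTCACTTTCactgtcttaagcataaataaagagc
Slfn8 (chr11:83020824-83020883, minus strand): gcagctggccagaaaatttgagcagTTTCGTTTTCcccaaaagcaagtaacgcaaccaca
Ifit1 (chr19:34640760-34640838, plus strand): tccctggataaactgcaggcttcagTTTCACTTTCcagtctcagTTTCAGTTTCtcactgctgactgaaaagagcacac
Rsad2 (chr12:26456538-26456597, minus strand): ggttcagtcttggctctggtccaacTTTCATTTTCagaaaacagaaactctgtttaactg
Bst2 (chr8:71537562-71537627, minus strand): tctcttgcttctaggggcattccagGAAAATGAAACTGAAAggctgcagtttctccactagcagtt
Stat2 (chr10:128270251-128270310, plus strand): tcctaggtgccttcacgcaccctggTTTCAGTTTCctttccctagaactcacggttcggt
B2m (chr2:122147523-122147582, plus strand): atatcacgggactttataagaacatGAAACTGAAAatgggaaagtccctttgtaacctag
Of all 32619 promoter windows, 3.46% held these core letters, so a match is not rare. A match describes the sequence and does not show that a factor binds there. Every promoter shown was picked from those that hold the core letters, so the stretches do not compare the classes. Among effector promoters the letters stood in 5 of 6 called in wild-type HSCs alone and 12 of 29 called in both. They also stood in the 1 called in knockout HSCs alone and in 6 of 14 called in neither.

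Most accessible regions were called in both genotypes, and those called in 1 genotype were mainly weak. The knockout list held 42459 regions covering 24.9 Mb, and 5479 of them were knockout-only, which is 12.9% (95% interval 12.6 to 13.2, Clopper-Pearson, counting error only). The wild-type list held 45615 regions covering 27.9 Mb, and 8922 of them were wild-type-only, which is 19.6% (19.2 to 19.9). Of the bases covered, 21.2 Mb lay in both lists, which is 85.2% of the knockout bases and 76.1% of the wild-type bases. The median -log10 p of a region, which grows with depth, was 51.0 in the knockout list and 66.8 in the wild-type list. The median fold over local background was 13.4 and 12.7 in the same order. The knockout list was also the shorter and was drawn from fewer libraries. At equal length, with the strongest 42459 regions of each list, 6205 knockout regions (14.6%) and 6538 wild-type regions (15.4%) had no partner, and among the strongest 10000 of each list the counts were 1066 and 1074. The surplus of wild-type-only regions seen in the whole lists was therefore small at equal length, where the number of libraries and the genotype cannot be told apart.

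Among strong regions, those in the upper 50% of their own list, 98 of 21230 knockout regions (0.462%, interval 0.375 to 0.562) and 295 of 22809 wild-type regions (1.29%, interval 1.15 to 1.45) were called in 1 genotype alone. Cut to equal length, the wild-type count was 181. With each list divided into 10 equal classes of strength, 70.9% of regions in the weakest class of the wild-type list were wild-type-only, 11.4% in the fifth class and 0.0439% in the strongest. The knockout list fell in the same way, from 52.9% in the weakest class to 5.58% in the fifth and 0.0471% in the strongest. Regions missing from the other genotype were also narrower, with a median width of 400 bp for wild-type-only and 357 bp for knockout-only regions, against 603 and 563 bp for the shared regions of those lists.

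**Figure D1:**
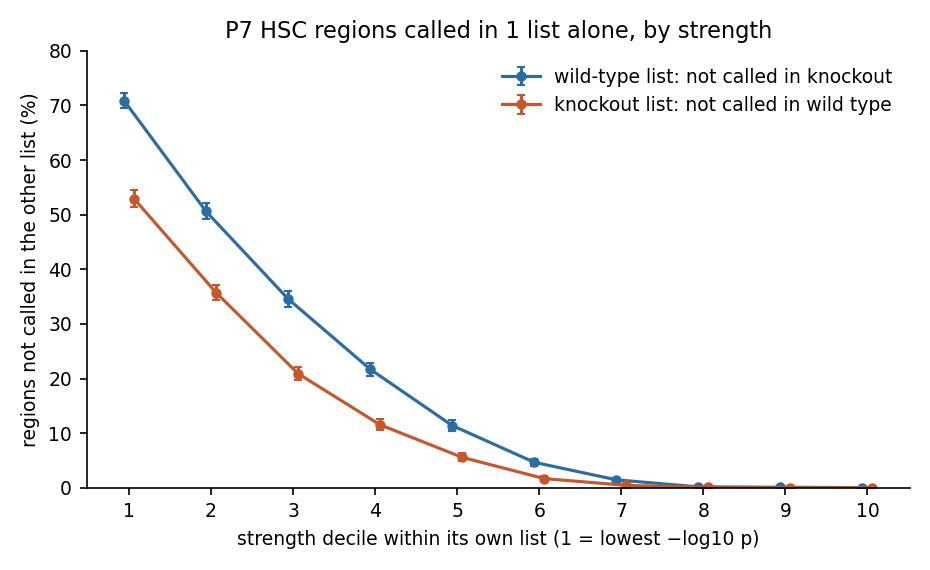
Share of regions called in 1 genotype alone (y axis, %) by class of -log10 p within the own list (x axis, 10 classes from weakest to strongest), for wild-type and knockout P7 HSCs, with exact 95% intervals that cover counting error only. Both lists fall from over 50% in the weakest class to under 0.1% in the strongest, and the wild-type share is the higher in 9 of the 10 classes.

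A smaller share of the regions called in 1 genotype alone than of shared regions lay at transcript starts. Of wild-type-only regions, 647 (7.25%) overlapped a promoter, against 26.0% of all shared wild-type regions and 11.3% of shared regions weighted to the same classes of strength. For knockout-only regions the count was 346 (6.32%), against 25.7% and 13.3%. The remaining regions were mostly inside genes, 48.9% in both directions, or outside genes, as were 39.1% of wild-type-only regions. The nearest region of the other list lay within 500 bp for 595 wild-type-only (6.67%) and 348 knockout-only (6.35%) regions, so most lay away from any region of the other list.

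The regions themselves were seldom particular to P7 or to HSCs. Among wild-type-only regions 2875 were called in all of the 10 other lists of the study, and 208 of the 295 strong ones were. Among knockout-only regions the counts were 1506, and 54 of the 98 strong ones. Regions called in no other list numbered 55 for wild type and 27 for the knockout, none of them strong.

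The strongest knockout-only region lay on the X chromosome at chrX:169996861-169997384, outside genes and 6063 bp from Mid1, which encodes a microtubule-associated ubiquitin ligase and is known to span the pseudoautosomal boundary of the mouse. Its -log10 p was 264 in knockout HSCs and 422 in knockout P7 HPCs, and it was called in no list of any other group. The sex of the mice is not in the labels, and its part in this region was not tested. The region at chr5:109996074-109996836 overlapped the promoter of Zfp932, a zinc finger gene, with 244 in knockout HSCs and 369 in knockout HPCs. It was missing from both wild-type lists of set 2 and present in all 8 lists of set 1, with values from 476 in P7 HPCs to 1801 in adult HSCs. The 2 strongest knockout-only regions were therefore shared by both knockout cell types, while the Zfp932 promoter was missing only from the wild-type lists of set 2.

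The other 8 knockout-only regions named by strength were called in all 11 lists except the wild-type HSC list. They were the promoter of Adat2, which encodes a subunit of the tRNA adenosine deaminase (chr10:13552629-13553496, -log10 p 130), and regions nearest to Atp8b1 (87.0), Slitrk3 (82.4), Crlf2 (81.7), Kif21b (80.1), Rab27b (78.8), Tmem150c (77.6) and Adh7 (74.3). The Adat2 promoter had values of 359 in wild-type HPCs and 345 in knockout HPCs. Crlf2 encodes a subunit of the thymic stromal lymphopoietin receptor, and its region lay 43516 bp from the gene.

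The strongest wild-type-only region was 241 bp wide at chr1:24612996-24613236, 25074 bp from the end of Col19a1. This stretch of chromosome 1 is known to hold a nuclear copy of mitochondrial DNA, and mitochondrial reads were not analysed here. Its -log10 p was 2492 in wild-type HSCs and 2818 in wild-type HPCs, and it was not called in knockout HSCs or knockout HPCs. Across the lists of set 1 it came and went, with 4803 in adult HSCs and no call in fetal HSCs, P14 HSCs or P21 HPCs. In the P7 HPCs of set 1, which have the same age and no knockout label, it had 10.1. The region at chr16:90349621-90350190, 35094 bp from Hunk, a kinase gene on the chromosome of Ifnar1, had 248 in wild-type HSCs and 322 in wild-type HPCs. It was called in all 10 lists without the knockout label, with values from 81.7 to 510, and in neither knockout list.

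A further 7 named wild-type-only regions were called in all 11 lists except the knockout HSC list. The region within Ltc4s, the gene of leukotriene C4 synthase (chr11:50236569-50237153), had 274 in wild-type HSCs, 332 in wild-type HPCs and 489 in knockout HPCs. The promoter of Brd3os, a gene beside the chromatin reader gene Brd3 (chr2:27441919-27442958), had 233, 138 and 254 in the same order. The remaining 5 lay at Pik3r3, a regulatory subunit gene of phosphoinositide 3-kinase (183), Snx30 (178), Gpr84, a receptor gene for medium-chain fatty acids (167), St8sia4 (155) and Kansl1l (136). The Kansl1l region ended 376 bp from a knockout region, and it was the only 1 of the 19 regions named here that counted as shared when regions within 500 bp were joined. All 19 stayed in 1 list alone when 50% coverage or overlap of the summit was required and at equal list length.

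**Figure D2:**
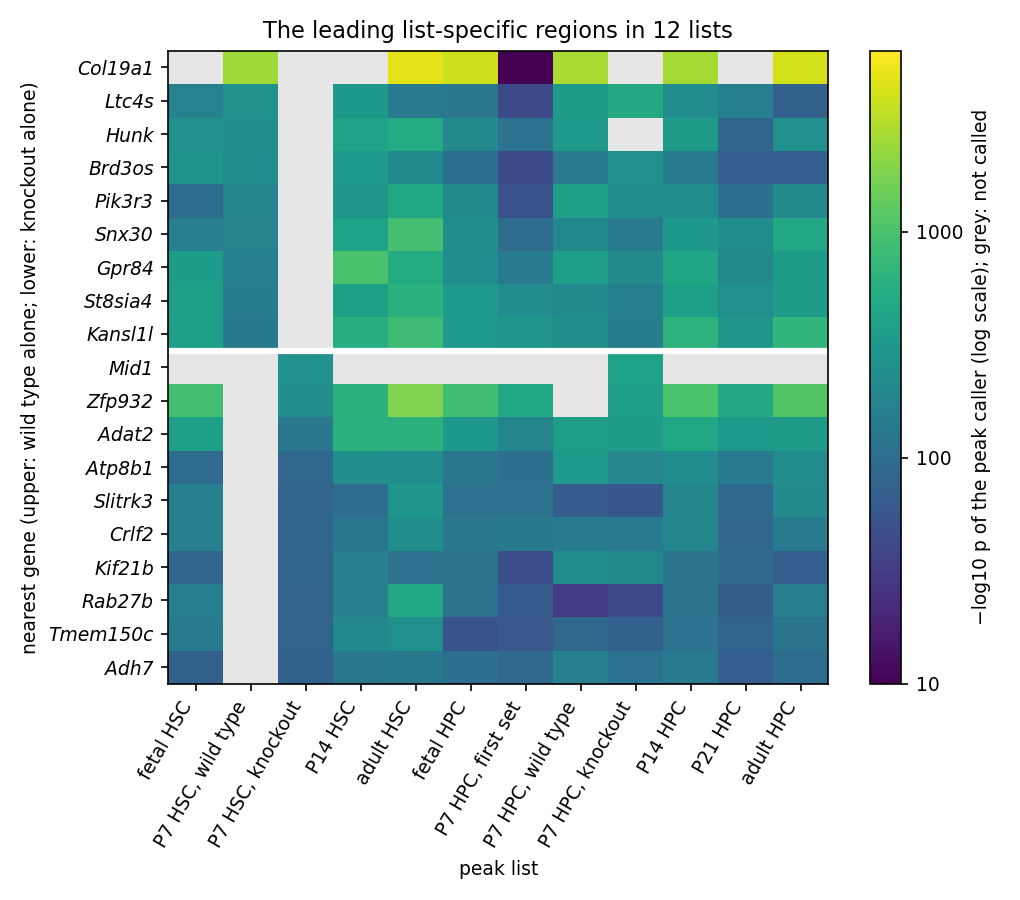
Strength (colour, -log10 p on a log scale) of 9 wild-type-only regions (upper rows, by nearest gene) and 10 knockout-only regions (lower rows), the strongest with 1 per gene and predicted genes left out, in all 12 peak lists (columns), with grey where the region was not called. In HPCs of set 2 15 of the 19 regions were called in both genotypes, while Mid1 and Zfp932 were missing from wild-type and Col19a1 and Hunk from knockout HPCs. Colours rank regions only within a column.

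Promoter windows existed for 17273 protein-coding genes. Both lists called 9177 of them, wild-type HSCs alone called 460 (2.66%) and knockout HSCs alone called 243 (1.41%). A further 127 windows were reached by only 1 list through the edge of a region that both lists shared, and 7266 were called in neither. Promoters called in 1 genotype alone were weak, with a median -log10 p of 31.0 for the 460 and 23 for the 243. Promoters called in both had medians of 173 in wild-type and 108 in knockout HSCs.

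The core of the interferon response element stood in promoters called in wild-type HSCs alone at nearly the share of shared promoters of the same strength. The core letters stood in 24 of the 460 promoters called in wild-type HSCs alone (5.22%, interval 3.37 to 7.66). In promoters called in both lists the share was 322 of 9177 (3.51%), and weighted to the strength of the 460 it was 5.43%. Among the 243 promoters called in knockout HSCs alone there were 7 (2.88%, interval 1.17 to 5.84), against 5.20% at the same strength. The GAS letters TTCNNNGAA stood in 7.61% and 7.82% of the promoters called in wild-type and knockout HSCs alone, against 7.75% and 9% at the same strength. The AP-1 letters TGANTCA, an unrelated comparison, stood in 8.48% and 6.17%, against 7.88% and 6.99%. The longer form, the core letters followed by CT, stood in 4 of the 460 (0.870%) and 1 of the 243 (0.412%), against 0.449% and 0.439%. In all 32619 windows these letters stood in 8.34% (TTCNNNGAA), 7.85% (TGANTCA) and 0.273% (the longer form).

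Of the 24 promoters with the core letters called in wild-type HSCs alone, 6 belong to the interferon lists used here: Irgm1, Igtp, Isg15, Oas1a, Ddx58 and Gbp2. The strongest of the 24 was Gm12250 (80.3), a gene of the interferon-inducible GTPase family, and the 5 weakest were Ddx58 (21.2), Kif1a (20.8), which encodes a neuronal motor, Gbp2 (17.6), Tgtp2 (16.3), an interferon-inducible GTPase gene, and Galntl5 (14.4). In HPCs 10 of the 24 were called in both genotypes and 6 again in wild type alone: Gm12250, Isg15, Oas1a, Tmc7, Clec4d and Trim12a. These 6 were picked out after their values were seen. Of all 460 promoters called in wild-type HSCs alone, 39 (8.48%) were called in wild-type HPCs alone and 42 in knockout HPCs alone, while 297 were called in both. The 7 knockout-alone promoters with the core letters were Wls (33.6), Fam169b, Kcnab1, Slfn8, Tmem140, Gpha2 and Calhm6, of which 5 were called in both HPC lists. In HPCs the core letters stood in 20 of 280 promoters called in wild type alone (7.14%, interval 4.42 to 10.8). They stood in 6 of 216 called in the knockout alone (2.78%, interval 1.03 to 5.95). The share was 3.53% in promoters called in both HPC lists and 3.98% in promoters of all genes. These HPC shares were not weighted to strength.

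The genes of the interferon pathway were followed from the ligands to the effectors, over 8 lists with 155 genes, of which 125 had a promoter window. The 17 promoters of type I interferon ligands were called in neither HSC list, although 11 of them hold the core letters. Ifnb1, the gene of interferon beta, had a wild-type-only region 6035 bp away (68.1), which lay 750 bp from a knockout region.

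The receptor promoters were called in both genotypes. The Ifnar1 promoter had a -log10 p of 653 in wild-type and 378 in knockout HSCs, and 797 and 794 in HPCs. Its region ran from 91484811 to 91485633 on chromosome 16 in the knockout list and from 91484815 to 91485678 in the wild-type list. Ifnar2 had 119 and 92.0 in HSCs. An open promoter does not check the genotype, since deletion of a coding part of a gene can leave its promoter in place. The receptor genes of interferon gamma were called likewise, Ifngr1 with 815 and 461 and Ifngr2 with 87.5 and 58.3, while Ifnlr1, for interferon lambda, was called in neither. Over all promoters called in both lists the median was also higher in wild type, 173 against 108.

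Of 8 promoters of receptor kinases and STATs 7 were called in both lists. The exception was Stat4, whose window was reached only by the edge of a wild-type region (242) that both lists shared. Wild-type and knockout values were 419 and 247 for Jak1, 460 and 305 for Tyk2, 530 and 315 for Stat2 and 249 and 143 for Irf9. Jak1 had 5 wild-type-only regions of 12 and 1 knockout-only region of 8, the strongest at 26.3. Of 8 promoters of interferon regulatory factors 7 were called in both, among them Irf1 (324 and 176), Irf7, the amplifier of interferon alpha production (76.7 and 37.1), and Irf8, a myeloid regulator (124 and 70.9). The exception was Irf5, called in neither.

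Among the inhibitors that end the signal 1 promoter was called in wild-type HSCs alone. Of 9 promoters 7 were called in both, including Socs1 (294 and 136) and Socs3 (338 and 189), which block JAK kinases. The promoter of Irf2bp1, a corepressor partner of IRF2, was called in wild-type HSCs alone (47.9), 358 bp from a knockout region, and in both HPC lists (103 and 90). Ptpn6 was called in neither. At Irf2bp2 the promoter region had 612 in wild-type HSCs (chr8:126593907-126594865) and 47.4 in knockout HSCs. There the knockout list split the stretch into the region on the window (chr8:126593851-126594294) and a stronger one beside it (chr8:126594367-126594920, 349), so the window values of Irf2bp2 are not of like regions. Usp18, the protease that removes ISG15 and blocks the receptor, had 2 wild-type and 3 knockout regions within 10 kb, none of them in 1 list alone.

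Among effectors, the genes whose products act against viruses and intracellular microbes, 6 of 50 promoters were called in wild-type HSCs alone and 1 in knockout HSCs alone, while 29 were called in both and 14 in neither. Read against called promoters, 6 of 35 in wild type is 17.1% (interval 6.56 to 33.6) and 6.97% of all genes' promoters of the same strength were called there alone. In the knockout, 1 of 30 is 3.33%, against 2.04%. The interval for wild type just includes the share of all genes at the same strength. It lies above their share without weighting to strength, 460 of 9739 called promoters (4.72%). Of the 6 effector promoters called in wild-type HSCs alone, 3 lie within 500 bp of a knockout region. Over all 8 interferon lists, 10 of 89 called promoters (11.2%, interval 5.52 to 19.7) were called in wild-type HSCs alone. The share at the same strength was 5.61%, which lies just inside the interval. In knockout HSCs alone 2 of 80 (2.5%) were called, against 2.09%. Read against all promoter windows, without weighting to strength, 10 of 125 (8%) were called in wild-type HSCs alone. The interval of that share lay above the 2.66% of all genes. In knockout HSCs alone 2 of 125 (1.6%) were called, with an interval that included the 1.41% of all genes.

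Isg15, which encodes the ubiquitin-like modifier ISG15, carries overlapping core matches just before its start. Its promoter region (chr4:156200700-156200990) had a -log10 p of 34.0 in wild-type HSCs and was not called in knockout HSCs, where the nearest region lay 1958 bp away. It was also called in wild-type HPCs (28.7) and not in knockout HPCs. Among the other lists it was called in P14 HSCs (46.7), adult HSCs (75.7) and the P7 (29.9), P14 (32.2), P21 (14.1) and adult (51.0) HPC lists, and in neither fetal list. Every postnatal list without the knockout label therefore held the Isg15 promoter, and the 2 fetal and 2 knockout lists did not.

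Oas1a, whose product senses double-stranded RNA and makes the oligoadenylates that activate RNase L, also holds overlapping core matches. Its region (chr5:120907416-120907875) had 33.4 in wild-type HSCs and 42.0 in wild-type HPCs and was called in neither knockout list, and the nearest region of knockout HSCs lay 76047 bp away. It was called in the fetal (22.2), P14 (74.3) and adult (43.7) HSC lists, and in none of the 5 HPC lists of set 1. A missing call at this promoter therefore also occurred in lists without the knockout label.

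Igtp and Irgm1 encode immunity-related GTPases that act on vacuoles holding microbes. The Igtp promoter (chr11:58199186-58199683) had 34.5 in wild-type HSCs, no call in knockout HSCs, with the nearest region 19272 bp away, and 46.8 and 56.5 in wild-type and knockout HPCs. The Irgm1 promoter (chr11:48871264-48871874) had 71.3 in wild-type HSCs and no call in knockout HSCs, but a knockout region lay 258 bp away. In HPCs it had 92.0 and 76.9. Both genes were called in every list except that of the knockout HSCs.

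Gbp2, a guanylate-binding protein gene, had the weakest of these promoters, 17.6 in wild-type HSCs, 142 bp from a knockout region, and it fell below the limit at equal length. In HPCs it had 105 and 18.4. Dtx3l, a ubiquitin ligase gene that shares its promoter with Parp9, had 62.4 in wild-type HSCs, 469 bp from a knockout region, and 207 and 145 in HPCs. Slfn8 ran the other way, with 25.9 in knockout HSCs and no call in wild-type HSCs, where the nearest region lay 19021 bp away. It was called in both HPC lists (87.1 in wild type and 48.2 in the knockout) and missing from fetal HSCs. With regions within 500 bp counted as shared, Isg15, Oas1a and Igtp remained in wild-type HSCs alone.

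Most effectors with strong promoters were called in both genotypes. Ifit1, whose product binds foreign RNA caps, had 163 and 67.9, Rsad2, the gene of viperin, had 277 and 130, and Bst2, the gene of the tetherin that holds budding virions, had 240 and 174. Ifitm1 had 472 and 251, Ifit2 had 359 and 252, and Oas1c had 243 and 129. Gbp7 (99.9 and 104) and Phf11b (16.3 and 19.9) were the higher in the knockout list. Phf11b was called in wild-type HPCs alone (64.8), and at equal length in knockout HSCs alone. Ranked within each list at equal length, a comparison added after the data were seen, 17 of 28 effector promoters stood lower in the knockout (60.7%), and so did 5298 of 9120 promoters of all genes (58.1%). The largest fall among these 28 was that of Ifit1, from percentile 78.5 in wild type to 62.7 in the knockout. The largest rise was that of Gbp7, from 63.1 to 77.7. Of the other interferon lists, 6 of 7 promoters of interferon regulatory factors and 6 of 7 of inhibitors (Irf2bp2 among them) stood lower. So did 10 of 14 of antigen presentation genes and 3 of 4 of receptors. The counts were 4 of 7 for kinases and STATs and 4 of 10 for sensors. Outside the interferon lists 13 of 18 promoters of cell cycle genes and 9 of 13 of HSC regulators stood lower. For immediate early genes it was 4 of 10 and for the myeloid programme 0 of 3. The median shift was -0.73 percentile points for effectors, -2.32 for regulatory factors and -6.17 for inhibitors, against -0.52 for all genes. It was -1.44 for HSC regulators and -6.27 for lymphoid priming genes, but 1.25 for immediate early genes and 6.47 for the myeloid programme.

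**Figure D3:**
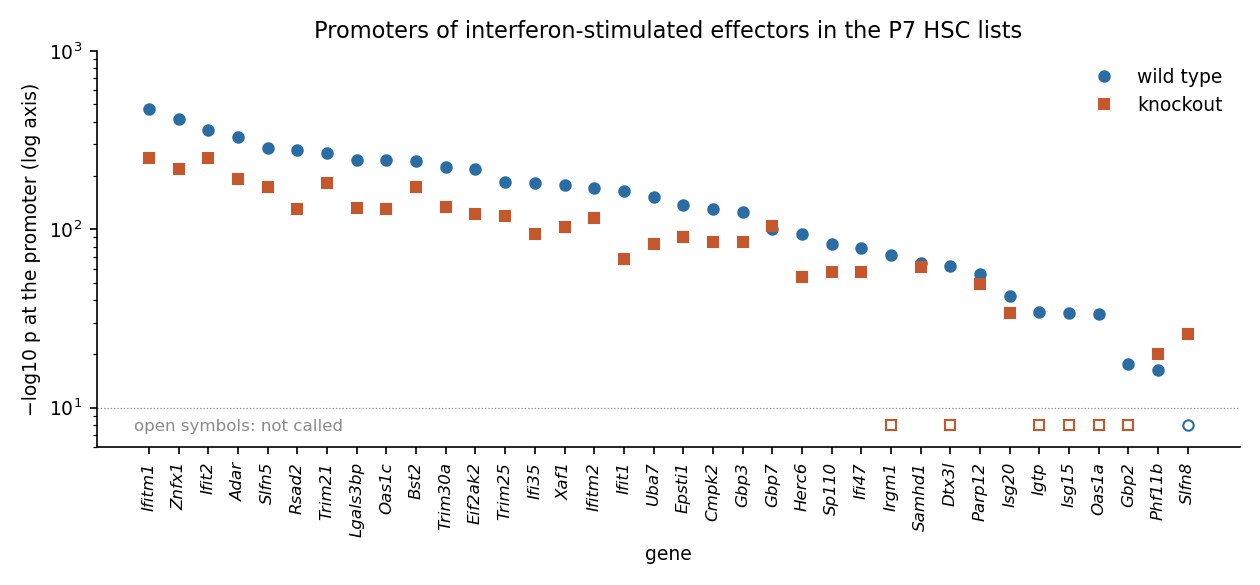
The -log10 p (y axis, log scale) at the 36 promoters of interferon-stimulated effectors (x axis, by gene) that were called in wild-type HSCs (circles), knockout HSCs (squares) or both. Open symbols under the dotted line stand for a promoter that was not called: 6 lack a call in the knockout, 5 of them at 62.4 or less in wild type and Irgm1 at 71.3, and Slfn8 lacks a call in wild type.

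The sensors that start interferon production and the antigen presentation genes that answer to it were mostly called in both lists. Of 14 sensor and adaptor promoters 10 were called in both. Ddx58, the gene of the RNA sensor RIG-I (21.2, at 144 bp from a knockout region), Ikbke (21.3) and Traf3 (35.1) were called in wild-type HSCs alone. Cgas, the gene of the DNA sensor cGAS (19.4), was called in knockout HSCs alone. All 4 were called in both HPC lists. The 14 promoters of MHC class I and antigen presentation were all called in both, with 231 and 128 at B2m, 549 and 307 at H2-K1 and 368 and 214 at Tap1.

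Away from promoters, regions within gene bodies and 10 kb on each side were counted. Over all protein-coding genes 6505 of 35789 wild-type regions (18.2%) and 3902 of 33441 knockout regions (11.7%) were called in 1 genotype alone. At least 1 wild-type-only region lay near 27.1% of genes and at least 1 knockout-only region near 18.0%. Near effectors 28 of 140 wild-type regions (20%) were wild-type-only, and 8 of 121 knockout regions (6.61%) were knockout-only, and 26 and 9 of the 64 genes had 1 or more. Over the 8 interferon lists the counts were 66 of 385 (17.1%) and 26 of 348 (7.47%), with 54 and 28 of 155 genes. In these windows the wild-type shares lay near those of all genes, and the knockout-only shares below them. Other windows gave other orders: within 50 kb the effectors' knockout-only share was 13.0% against 12.3% for all genes, and at starts within 1 kb their wild-type-only share was 15.6% (interval 6.49 to 29.5) against 7.98%. In HPCs the 10 kb counts over the 8 lists were 84 of 525 (16%) and 37 of 473 (7.82%), against 17.8% and 9.33% for all genes. By role, the wild-type-only and knockout-only regions were 3 of 9 and 0 of 7 near ligands, 1 of 14 and 1 of 13 near receptors, 8 of 36 and 4 of 32 near kinases and STATs, 3 of 31 and 1 of 29 near interferon regulatory factors, 6 of 45 and 1 of 42 near inhibitors, 11 of 65 and 7 of 61 near sensors and 6 of 45 and 4 of 43 near antigen presentation genes. Only 3 wild-type-only regions and no knockout-only region near interferon genes were strong.

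The 3 strong regions and their neighbours were of varied kinds. A region over the start of Mx2, which RefSeq annotates as a transcribed pseudogene like Mx1 in this strain (chr16:97535494-97536405), had 106 in wild-type HSCs, with a knockout region of 86.4 at 47 bp. In HPCs it had 181 and 155. Irgm1 and Ifnb1 hold the other 2. Samhd1, the gene of a nucleotide hydrolase, had a wild-type-only region at 66.2 and Ifit1 1 at 35.0, which lay 7066 bp from the gene and was called in wild-type (58.6) and not in knockout HPCs. Ly6a, the gene of the HSC surface antigen Sca-1 and itself induced by interferon, had a knockout-only region at 32.6. Oas2 had no region in either list. Near Irf8 the strongest region of 1 genotype was knockout-only (40.5), 9788 bp from the gene, and near Irf2 wild-type-only (38.4). Ciita, the master regulator of MHC class II, had 2 of 3 wild-type regions in that list alone (53.7 the higher).

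**Figure D4:**
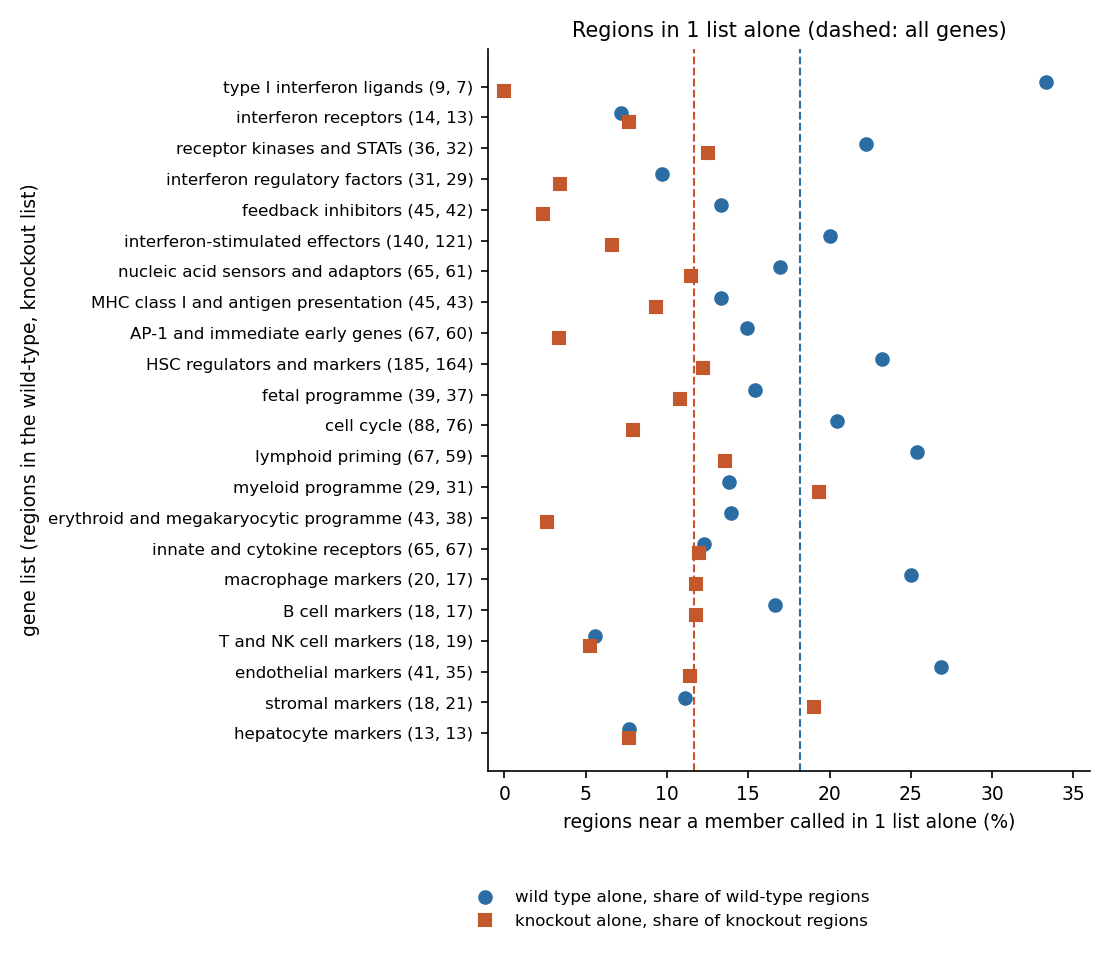
Share of regions within gene bodies and 10 kb on each side that were called in 1 genotype alone (x axis, %), for 22 gene lists (y axis, with the number of wild-type and knockout regions), as wild-type-only shares (circles) and knockout-only shares (squares), and with dashed lines for all protein-coding genes. Effectors stand at 20% and 6.61%, HSC regulators at 23.2% and 12.2% and all genes at 18.2% and 11.7%.

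The label of the cells was checked at markers of HSCs. Of 22 promoters of HSC regulators and markers 13 were called in both genotypes, among them the transcription factor genes Hlf (152 and 87.8), Runx1 (92.3 and 62.9), Tal1 (70.3 and 49.4), Lyl1 (539 and 322) and Erg (95.6 and 49.4), and the stem cell factor receptor gene Kit (153 and 95.3). Gata2 (35.6) and Prdm16 (41.1) were called in wild-type HSCs alone, and Procr, the gene of the endothelial protein C receptor and an HSC surface marker, in knockout HSCs alone (21). The promoters of Mecom, Hoxa9, Slamf1 and Tek were called in neither list. The markers do not separate HSCs from HPCs by themselves, since the promoter of a stem cell gene can be open in both.

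Around these genes the 2 directions were both present. Mecom, a regulator of HSC self-renewal, had 4 wild-type-only regions of 15 (the highest 37.2) and 5 knockout-only regions of 16 (the highest 26.6). Hlf had 3 wild-type-only regions of 6 (33.1) and no knockout-only region of 3, and Vwf, a marker of platelet-biased HSCs, 3 of 11 (50.5) and none of 9. Prdm16 had 6 of 18 and 4 of 17. In all, 43 of 185 wild-type regions (23.2%) and 20 of 164 knockout regions (12.2%) near HSC regulators were in 1 list alone. The intervals, 17.4 to 30% and 7.61 to 18.2%, include the shares of all genes, 18.2% and 11.7%, and none of the regions was strong. Without chromosome 16 the knockout share was 11.6%, as for all genes.

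In 7 lists of other programmes 3 promoters (2.97% of those with a window, interval 0.617 to 8.44) were called in wild-type HSCs alone and 3 in knockout HSCs alone, and the interval includes the 2.66% and 1.41% of all genes. Among immediate early genes, which dissociation of tissue is known to induce, Atf3 (35.4) and Junb (15.4) were called in knockout HSCs alone and Zfp36 (23) in wild-type HSCs alone, and 10 of 67 wild-type and 2 of 60 knockout regions were in 1 list. The strongest there was a wild-type-only region of Nr4a1 (62.0). Near cell cycle genes 18 of 88 and 6 of 76 regions were in 1 list, with Ccnd1, the gene of cyclin D1, at 68.0 in wild type. Near lymphoid priming genes they were 17 of 67 and 8 of 59, with 3 of 5 regions of Satb1 wild-type-only (52.9). In the myeloid programme 4 of 29 and 6 of 31 were in 1 list. Cebpb had a wild-type-only region (58.9), the promoter of Csf3r was called in wild-type HSCs alone (30.1) and that of Lyz2 in knockout HSCs alone (23.3). The erythroid and megakaryocytic programme had 6 of 43 and 1 of 38 regions in 1 list, innate and cytokine receptors 8 of 65 and 8 of 67, and the fetal programme 6 of 39 and 4 of 37.

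Most promoters of markers of other cell types, apart from endothelial ones, were called in neither list, but some of those called were strong. The 12 promoters of T and NK cell markers and the 9 of hepatocytes were called in neither. For B cells 1 of 8 promoters was called in both, that of Cr2 (465 in wild type and 342 in the knockout), and for stromal cells 2 of 8. For macrophages 1 of 12 was called in both, Cd68 (120 and 84.3), 9 in neither, and C1qc (23.6) in wild-type HSCs alone. The Mertk promoter was reached only by a wild-type region (200) that both lists shared. Endothelial markers, part of which HSCs also express, were called more often, with 4 of 8 in both, Emcn (23.5) in wild-type HSCs alone and Tie1 (24.1) in knockout HSCs alone. Near endothelial genes 11 of 41 wild-type regions (26.8%) and 4 of 35 knockout regions were in 1 list, with Stab2 at 79.9 and Pecam1 at 71.4 in wild type. Their part in the other differences was not tested.

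The P7 HPC lists, 3 wild-type and 3 knockout libraries, were not used to choose the HSC regions and give another view of the same genotypes. 1 knockout HPC library has a title ending in U3, a code of the wild-type form, and was kept as knockout by its genotype label. Of the 8922 wild-type-only HSC regions 5156 (57.8%) were called in both HPC lists, 1249 (14.0%) in wild-type HPCs alone, 706 (7.91%) in knockout HPCs alone and 1811 (20.3%) in neither. Of the 5479 knockout-only HSC regions 2880 (52.6%) were called in both, 500 (9.13%) in knockout HPCs alone, 811 (14.8%) in wild-type HPCs alone and 1288 (23.5%) in neither. More than 50% of the regions of each kind were thus called in both genotypes of HPCs. Knockout-only HSC regions called in 1 HPC list were mostly called in wild-type HPCs, 811 against 500. The wild-type HPC list was the longer, with 66044 regions against 58567. Shared HSC regions leaned the same way. In the wild-type list 1139 of them were called in wild-type HPCs alone, and in the knockout list 814 in knockout HPCs alone.

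Among wild-type-only HSC regions that wild-type HPCs also called, 1249 of 6405 (19.5%, interval 18.5 to 20.5) were missing from knockout HPCs. Shared HSC regions were missing in 3.28% of cases, or 15.6% when weighted to the same classes of strength in both the HSC and the HPC list. For knockout-only regions called in knockout HPCs, 500 of 3380 (14.8%, interval 13.6 to 16) were missing from wild-type HPCs, against 2.35%, or 11.1% at the same strength. Strong regions showed small counts, 12 of 280 (4.29%) against 2.36% for wild type and 8 of 93 (8.60%) against 3.27% for the knockout. Both directions exceeded shared regions of the same strength by a few percentage points, and 268 of the 295 strong wild-type-only and 85 of the 98 strong knockout-only regions were called in both HPC lists. Without chromosome 16 the shares were 19.3% and 14.8%.

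**Figure D5:**
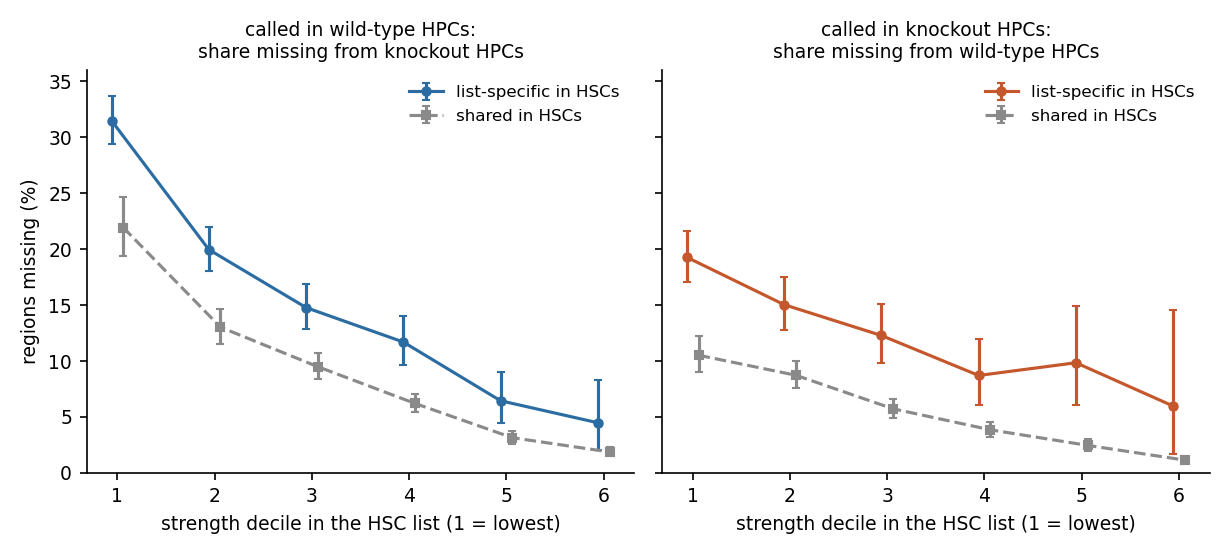
Of HSC regions also called in HPCs of the same genotype, the share missing from HPCs of the other genotype (y axis, %), by class of -log10 p in the HSC list (x axis, the 6 weakest of 10 classes), for regions called in 1 HSC list alone (solid) and shared regions (dashed), with exact 95% intervals for counting error; wild type left, knockout right. In the weakest class the shares are 31.5% against 21.9% for wild type and 19.3% against 10.5% for the knockout, and in the fifth class 6.44% against 3.14% and 9.84% against 2.46%.

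The HSC lists of other ages belong to set 1, and the P14 and part of the adult list were assigned by the group name each list carries, because the descriptions of those libraries name the list of another group. Wild-type-only regions were called in 83.7% of cases in fetal, 90.1% in P14 and 82.6% in adult HSCs. Shared regions weighted to the same strength were called in 90.5%, 96.3% and 88.8%. Knockout-only regions were called in 84.4%, 88.0% and 81.9%, against 91.3%, 96.9% and 90.3%. Most regions of both kinds were thus called in HSCs of other ages, at shares below those of shared regions of the same strength. For strong wild-type-only regions the shares were 95.9%, 99.7% and 94.9%, and for strong knockout-only regions 89.8%, 94.9% and 87.8%.

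DNA linked to a targeted locus can come from another strain, so chromosome 16, which carries Ifnar1 (chr16:91485032-91510523) and Ifnar2 (chr16:91372783-91405589), was set apart. On it 199 of 1481 knockout regions (13.4%) and 300 of 1573 wild-type regions (19.1%) were in 1 list alone, 4 and 9 of them strong. Without it the shares were 12.9% (5280 of 40978) and 19.6% (8622 of 44042), the same as with it. Within 1 Mb of Ifnar1 they were 9 of 81 (11.1%) and 22 of 95 (23.2%, interval 15.1 to 32.9), against 13.6% and 18.8% on the rest of the chromosome. Within 5 Mb they were 36 of 269 (13.4%) and 59 of 294 (20.1%), against 13.4% and 18.8%. Within 10 Mb they were 48 of 317 (15.1%) and 81 of 352 (23%, interval 18.7 to 27.8), against 13% and 17.9%, so the wild-type-only share was higher near the gene in each window and its interval at 10 Mb lay above the share of the rest. At equal length the knockout-only share ran from 11.9% on chromosome 11 to 18.3% on X and the wild-type-only share from 14.1% on chromosome 7 to 17.4% on chromosome 10, with 15.3% and 14.9% on chromosome 16. Chromosome 16 as a whole thus lay within the range of the others.

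Next to the receptor gene lay 1 knockout-only region, 1 of the 9 among 81 knockout regions within 1 Mb of Ifnar1. It was not among the strong regions. It lay upstream of Ifnar1 at chr16:91475557-91476331, 8484 bp from the nearest wild-type region, with a -log10 p of 42.8 in knockout HSCs and 71.2 in knockout HPCs. It was not called in wild-type HSCs or in wild-type HPCs of set 2, nor in fetal, P14 or adult HSCs. It was called in 5 of the 12 lists in all, so HPC lists of set 1, none labelled as knockout, held it too.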

How the data were processed

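ATAC-seq of mouse P7 HSCs was compared between 2 libraries labelled Infnar_KO and 3 labelled Wildtype, grouped by their cell type, age and genotype labels, with the other 10 lists of the study as context. Per the submitters' processing notes, Bowtie2 and MACS2 were used on build mm10 (GRCm38). Versions, settings and depth of the reads, and how the libraries of a list were combined, are not given in the sources used. List length and median -log10 p are the only measures of depth here. Columns of the deposited lists hold a peak score, a fold (ratio) over local background, the -log10 p, the -log10 q and the summit offset. These are the authors' own values and were used only to rank, filter or describe regions within a list.

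Peaks on chromosomes 1 to 19 and X were merged when they touched or overlapped, with the highest -log10 p kept for the region. Shared regions overlapped by at least 1 bp, and strong regions lay in the upper 50% of their list. Shares carry exact Clopper-Pearson intervals at 95%, which cover counting error only. They count regions or promoters as if these were independent and hold no spread between libraries. Fragments carried no molecular identifiers. Shares of shared regions at the same strength are weighted to the 10 classes of -log10 p of the regions they are set beside. No test was run, because each group has 1 list.

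Gene positions and promoter windows (250 bases before to 50 after a start) are those of RefSeq for GRCm38.p6. All 394 genes of 22 lists matched by symbol, and 305 had a promoter window. A promoter window was called in 1 genotype alone when only regions of that list lay on it and the other list shared none of them. A gene counted as called in both when any of its windows was, or when its windows were called alone in opposite directions. Named regions are the 10 with the highest -log10 p in each direction, 1 per gene, named by the gene end nearest within 50 kb, predicted genes excluded. Up to 4 members per gene list with such regions, by -log10 p, could be named, and pathway genes such as Ifnar1, Isg15, Ifit1, Mecom and Hlf were always followed; some of these are not reported here, and promoters described by role were also named from the fixed lists. The regions, lists and rules were chosen with earlier results of these data known. The overlap step was tested on lists made from the merged wild-type list, and the weighting and the motif search on made examples. The merging step was not tested in this way. Python 3.11.15 with numpy 2.4.6, pandas 2.3.3, scipy 1.17.1 and matplotlib 3.10.9 was used.

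Alternatives changed the overlap, the threshold, the ranking measure, list length, the window around genes, the motif and chromosome 16.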

Additional observations from a re-analysis of the deposited data

Results flagged for a closer look

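Some regions went opposite ways in HSCs and HPCs. Called in wild-type and not in knockout HSCs, and in knockout and not in wild-type HPCs, were 706 regions. They made up 7.91% of the 8922 wild-type-only HSC regions, and 4 were strong. The strongest lay within Syn3 (chr10:86124094-86124573), with a -log10 p of 86.6 in wild-type HSCs and 22.4 in knockout HPCs, and within Prmt3, with 73.3 and 59.7. Called in knockout and not in wild-type HSCs, and in wild-type and not in knockout HPCs, were 811 regions. They made up 14.8% of the 5479 knockout-only HSC regions, and 3 were strong. The strongest of these lay far from genes, nearest to Ccdc54 (60.4 in knockout HSCs and 58.6 in wild-type HPCs) and to Zbbx (54.7 and 52.5). The wild-type HPC list was also the longer of the 2. The difference between the cell types was not tested, since each group has 1 list.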

How the results depend on the processing

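No paired analysis was possible because each group has 1 pooled list of all its libraries, and leaving out each library was not possible for the same reason. A motif search around peak summits, with a narrower window as its alternative, was planned and not run, as no genome was used here. Read depth is not known, so genotype and depth cannot be told apart for weak regions. Of 124 alternative values for 26 results, 75 stayed near the reported value and 49 moved. The cause was not tested, except where fewer regions are counted.

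In the upper 25% of each list 10 wild-type-only and 3 knockout-only regions remained. Among the highest 10000, 20000 and 30000 regions of each list (added after the data were seen) there were 1074, 2214 and 3504 wild-type-only and 1066, 2165 and 3394 knockout-only regions. Strong wild-type-only regions numbered 497 when 50% coverage was required, 181 at equal length, 176 at equal length without chromosome 16, 921 when the fold set strength and 727 at equal length by fold. Strong knockout-only regions numbered 150 with 50% coverage and 564 by fold, also at equal length.

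Near effectors strong regions alone gave 2.74% wild-type-only and 0% knockout-only, and windows of 50 kb gave 13.0% knockout-only, against 12.3% for all genes. Over the 8 interferon lists the wild-type-only share was 11% at starts within 1 kb, 1.37% for strong regions and 12.8% at equal length, and the knockout-only share 0% for strong regions. All genes moved with them, to 7.98%, 1.18% and 14.3% for wild type. Strong HSC regions missing from HPCs of the other genotype were 4.29% for wild type and 8.60% for the knockout. Strong wild-type-only regions were called in 95.9% of cases in fetal, 99.7% in P14 and 94.9% in adult HSCs, and strong knockout-only regions in 89.8%, 94.9% and 87.8%. The longer motif stood in 0.870% and 0.412% of promoters called in wild-type and knockout HSCs alone. Effector promoters in wild-type HSCs alone were 3 when regions within 500 bp were joined, and those in knockout HSCs alone 2 at equal length (both added after the data were seen).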
